A study of Rattus norvegicus with 6 samples.

Results

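The genes described here encode voltage-gated sodium channel subunits, 8 in all, of the 17366 transcripts (1 per gene symbol) in the deposited expression table. They were taken by symbol: the alpha subunit genes Scn1a, Scn2a, Scn3a, Scn8a and Scn9a, and the beta subunit genes Scn2b, Scn3b and Scn4b. The table came from retinal ganglion cells (RGCs), whose axons form the optic nerve, of Sprague Dawley rats labelled age P5 and kept for 10 days in culture. The cells of 3 libraries were exposed to 1 µg/ml Chrdl1 for 12 h, and those of the other 3 to the vehicle, 0.1% BSA with 4 mM HCl. Chrdl1 (chordin-like 1) is an extracellular antagonist of bone morphogenetic proteins. A number in the titles, here the title code, ties each Chrdl1 library to 1 vehicle library, and these pairs are called A, B and C. What the number means, and whether libraries came from separate cultures, is not in the labels, so the tests measure the spread between these libraries, which may be technical. Cultured RGCs lack the myelinating glia and targets of the optic nerve, which limits them as a model of the intact axon.

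Voltage-gated sodium channels carry the inward current that starts and propagates action potentials. The alpha subunit forms the pore, senses voltage and inactivates within milliseconds, while beta subunits are single-pass proteins with an immunoglobulin domain that tune gating, surface level and adhesion. In RGCs the channels gather at the axon initial segment and, along the optic nerve, at nodes of Ranvier. There the early channel Nav1.2 gives way to Nav1.6 as the axon is myelinated.

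On rn6, in the coordinates of the table, Scn3a (chromosome 3, 51532627 to 51643140, minus strand) and Scn2a (51687910 to 51822008, plus strand) lie head to head, 44.8 kb apart. Scn1a (52388812 to 52510507) and Scn9a (52583953 to 52664209), both on the minus strand of chromosome 3, are 73.4 kb apart. Scn8a stands alone on chromosome 7 (142575629 to 142683667). On chromosome 8 all 3 beta genes are on the plus strand. Scn2b (49419003 to 49427550) and Scn4b (49441106 to 49456279) are only 13.6 kb apart, whereas Scn3b (44136496 to 44159011) is 5260 kb from Scn2b.

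Promoter windows from RefSeq (assembly GRCr8, 250 bases before to 50 bases after the gene's start) were found for 6 of the 8 genes, all but Scn1a and Scn3b. The windows of 4 genes follow, 5′ to 3′, for the most abundant alpha gene Scn2a, for Scn8a, whose window held the most CG dinucleotides of the 6, and for the neighbours Scn2b and Scn4b, whose levels lay far apart. Capitals mark each CG dinucleotide.
Scn2a, GRCr8 chr3:70710706-70711005, plus strand: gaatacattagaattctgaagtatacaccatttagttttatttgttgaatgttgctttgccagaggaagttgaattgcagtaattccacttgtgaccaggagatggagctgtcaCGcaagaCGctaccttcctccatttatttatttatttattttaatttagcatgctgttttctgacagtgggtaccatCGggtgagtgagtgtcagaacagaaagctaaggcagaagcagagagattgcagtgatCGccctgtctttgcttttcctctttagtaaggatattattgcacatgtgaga
Scn8a, GRCr8 chr7:133860977-133861276, plus strand: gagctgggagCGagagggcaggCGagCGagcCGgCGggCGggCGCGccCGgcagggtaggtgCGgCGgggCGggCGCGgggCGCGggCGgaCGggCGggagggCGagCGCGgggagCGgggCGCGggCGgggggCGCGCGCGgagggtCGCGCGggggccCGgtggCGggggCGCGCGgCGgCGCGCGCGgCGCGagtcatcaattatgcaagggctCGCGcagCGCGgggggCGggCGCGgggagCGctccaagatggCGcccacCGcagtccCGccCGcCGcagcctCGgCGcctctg
Scn2b, GRCr8 chr8:54322133-54322432, plus strand: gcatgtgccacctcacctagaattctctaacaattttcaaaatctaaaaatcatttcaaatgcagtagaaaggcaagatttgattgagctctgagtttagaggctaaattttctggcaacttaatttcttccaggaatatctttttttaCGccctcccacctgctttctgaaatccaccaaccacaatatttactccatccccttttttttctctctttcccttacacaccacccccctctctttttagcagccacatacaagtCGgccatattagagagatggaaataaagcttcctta
Scn4b, GRCr8 chr8:54343623-54343922, plus strand: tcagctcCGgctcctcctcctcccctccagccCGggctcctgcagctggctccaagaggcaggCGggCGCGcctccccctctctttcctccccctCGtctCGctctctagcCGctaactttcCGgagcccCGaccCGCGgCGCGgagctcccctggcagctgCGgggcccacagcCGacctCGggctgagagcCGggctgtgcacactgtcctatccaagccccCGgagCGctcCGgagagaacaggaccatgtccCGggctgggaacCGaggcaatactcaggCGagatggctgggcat
The Scn8a window held 60 CG dinucleotides and was 84.7% G or C, and 0.0538% of the 33469 RefSeq windows of this length held as many. The Scn4b window held 24 (70.0% G or C), a number reached by 18.0% of windows. The windows of Scn9a, Scn3a, Scn2a and Scn2b held 9, 7, 4 and 2, against a median of 7 over all windows. GGGCGG, the core of a GC box, occurred on either strand 7 times in the Scn8a window, counting overlaps, and in 0 of the other 5 windows, while 33.1% of all windows held it. TATAAA was in 0 of the 6, against 14.2% of all windows. These are letters in a window, and the start used by the cells was not measured.

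Read totals behind the FPKM scale ran from 14546600 (vehicle library of pair B) to 26551800, of which 62.7% to 65.8% fell on listed transcripts. Rbpms, a pan-RGC marker, was at 78.4 to 98.1 FPKM and the RGC transcription factor gene Pou4f2 at 24.6 to 38.0 FPKM. The extraction label names visual cortex, against all other labels. Gfap, of astrocytes, was at most 1.24 FPKM, and the cortical neuron genes Tbr1 and Neurod6 were at most 3.53 and 0.382 FPKM, while Slc17a7, a vesicular glutamate transporter gene, reached 54.3 and 57.5 FPKM in pair C and 2.44 to 7.26 FPKM elsewhere. Photoreceptor genes (8 of 8 in the table) summed to 98.7 and 104 FPKM in pair C and to 4.54 to 7.76 FPKM elsewhere. Bipolar cell genes (5 of 5) summed to 41.8 and 43.5 FPKM in pair C against 1.48 to 2.86 FPKM elsewhere. Microglia genes (14 of 14) summed to 31.9 FPKM in the vehicle and 17.4 FPKM in the Chrdl1 library of pair B, against 250.2 to 362 FPKM in the other 4. Amacrine genes (8 of 8) summed to 64.2 to 80.2 FPKM, of which Gad2 alone gave 51.2 to 68.3 FPKM. Astrocyte and Müller glia genes (8 of 8) summed to 53.2 to 96.1 FPKM, of which Glul alone gave 51.5 to 82.5 FPKM. Oligodendrocyte genes (6 of 6) summed to 13.9 to 19.97 FPKM, with Mbp at 6.99 to 11.6 FPKM and Mog at 5.52 to 6.93 FPKM. Olig2 and Sox10, of the same list, were at most 0.016 and 0.014 FPKM. Endothelial and mural genes (6 of 6), with Col1a2 at 0, summed to 3.48 to 24.9 FPKM. The genes Tbr1, Neurod6, Slc17a7, Gad2, Glul, Mbp, Mog, Olig2, Sox10 and Col1a2 were chosen for mention after their values were seen. In such bulk libraries, fewer cells of a type and less RNA per cell cannot be told apart.

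Levels are given in FPKM, a read count scaled to transcript length and library size, so that different genes can be set side by side. The scaling did not remove all dependence on length, since in pair C fold change went with transcript length, as given below. The beta subunit gene Scn3b was the most abundant member and Scn4b was near the floor. Over all 6 libraries the order of the means was Scn3b (80.7 FPKM ± 14.2, SD, n = 6), Scn2b (42.7 ± 4.02), Scn2a (28.7 ± 4.44), Scn3a (17.4 ± 3.21), Scn8a (16.5 ± 2.75), Scn9a (8.54 ± 3.005), Scn1a (4.84 ± 0.966) and Scn4b (0.111 ± 0.0523). Every neighbour in this order stood above the next in 6 of 6 libraries, except Scn3a and Scn8a, where Scn3a was above in 3 of 6. Those neighbours do not differ beyond their spread, with Scn3a at 0.945 to 1.24 times Scn8a. Among the 10390 transcripts tested, Scn3b stood at the 93.5 percentile of mean FPKM and Scn1a at the 22.9.

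**Figure D1:**
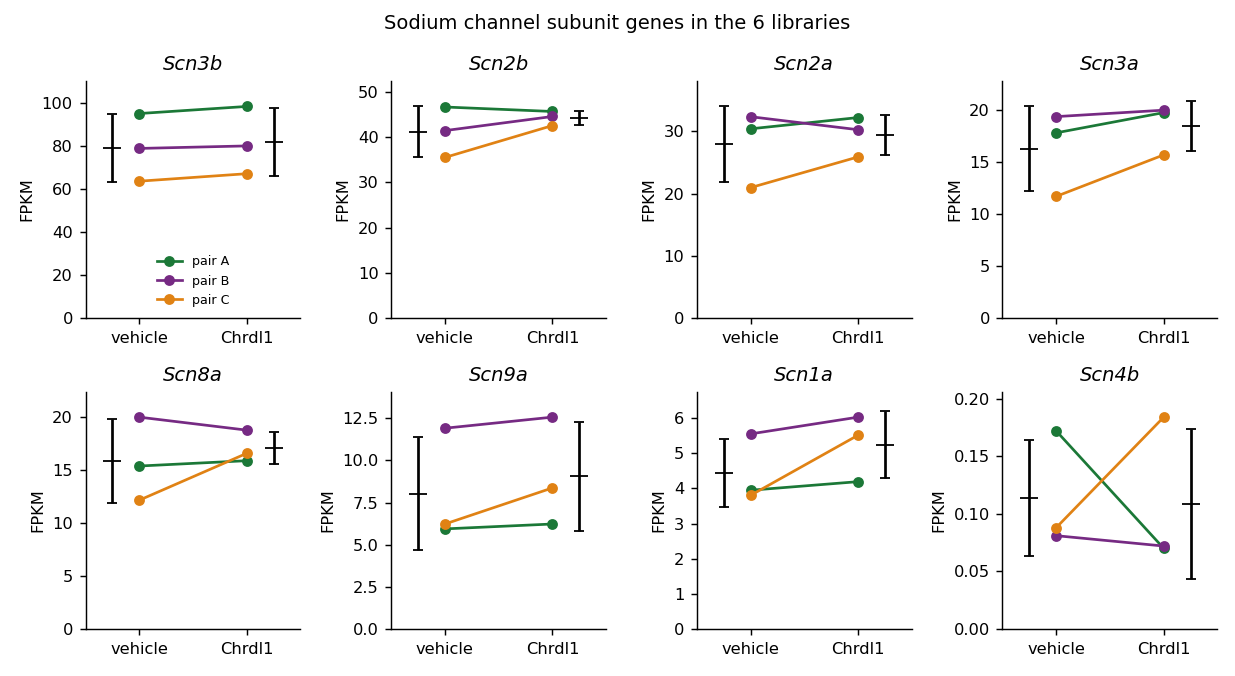
FPKM (vertical axes, from 0, a scale for each gene) of the 8 subunit genes, by treatment. Each line connects 1 pair, and black marks give group means with the SD over 3 libraries. For Scn3b the 3 pairs lie apart, for Scn9a pair B lies above the other pairs, and the vehicle library of pair C is the lowest of the 6 for Scn2a, Scn3a, Scn8a, Scn2b, Scn3b and Scn1a.

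Scn2a encodes Nav1.2, the channel of unmyelinated axons and of the immature initial segment. In pairs A, B and C, in that order here and below, it was at 30.4, 32.3 and 20.9 FPKM with vehicle, and with Chrdl1 at 32.2, 30.2 and 25.9 FPKM. Both pair C libraries lay below the other 4, and the groups overlapped. Scn3a encodes Nav1.3, known as the embryonic channel, which is low in the adult brain and reappears in injured sensory neurons. It was at 17.8, 19.3 and 11.7 FPKM in vehicle and 19.7, 19.9 and 15.7 FPKM in Chrdl1 libraries. Its pattern followed that of Scn2a, with pair C lowest. Scn8a encodes Nav1.6, the channel of mature nodes and initial segments. It was at 15.4, 19.99 and 12.1 FPKM in vehicle and 15.9, 18.8 and 16.6 FPKM in Chrdl1 libraries, highest in pair B.

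Scn9a encodes Nav1.7, best known from pain-sensing neurons. It was at 5.94, 11.9 and 6.23 FPKM in vehicle and 6.23, 12.6 and 8.37 FPKM in Chrdl1 libraries. Pair B stood apart in both groups, at a mean of 12.2 FPKM against 6.08 in pair A and 7.30 in pair C. Scn1a encodes Nav1.1, prominent in fast-spiking inhibitory neurons and mutated in Dravet syndrome. It was at 3.95, 5.55 and 3.803 FPKM in vehicle and 4.19, 6.03 and 5.52 FPKM in Chrdl1 libraries. Here the vehicle libraries of pairs A and C and the Chrdl1 library of pair A were low, and the groups overlapped.

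Scn3b encodes beta3, which binds the alpha subunit without a covalent bond and is prominent in the developing brain. It was at 95.3, 79.0 and 63.8 FPKM in vehicle and 98.6, 80.2 and 67.3 FPKM in Chrdl1 libraries. The order A, B, C was the same in both groups. Scn2b encodes beta2, joined to the alpha subunit by a disulfide bond. It was at 46.6, 41.4 and 35.5 FPKM in vehicle and 45.6, 44.5 and 42.5 FPKM in Chrdl1 libraries, and the low value was the vehicle library of pair C. Scn4b encodes beta4, the other disulfide-linked subunit, whose tail is tied to resurgent sodium current. It was at 0.172, 0.081 and 0.088 FPKM in vehicle and 0.070, 0.072 and 0.184 FPKM in Chrdl1 libraries, from 18, 5 and 10 reads and 7, 7 and 19 reads. These few reads could not show a difference: the library above its partner was the vehicle library in pairs A and B and the Chrdl1 library in pair C. Every other member rested on at least 514 reads in each library.

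The 5 alpha genes together came to 72.4 ± 17.2 FPKM (SD, n = 3) in vehicle and 79.2 ± 7.83 in Chrdl1 libraries. Scn2a gave the largest share of that sum in each library, 38.6% ± 2.58 in vehicle and 37.2% ± 3.49 in Chrdl1 libraries. Scn3a followed with 22.4% ± 1.57 and 23.2% ± 1.77, Scn8a with 21.8% ± 0.795 and 21.6% ± 1.36, Scn9a with 10.9% ± 2.67 and 11.3% ± 3.21, and Scn1a with 6.18% ± 0.781 and 6.64% ± 1.17. Among the beta genes of this set, Scn3b gave 65.6% ± 1.43 and 64.6% ± 3.59, Scn2b 34.3% ± 1.45 and 35.3% ± 3.53, and Scn4b 0.0923% ± 0.0271 and 0.0912% ± 0.0661. Summed beta over summed alpha FPKM, which sets shorter against longer transcripts, was 1.6996 ± 0.307 and 1.599 ± 0.219. The part of transcript length in this ratio was not tested. None of these 9 quantities differed between the groups beyond the spread: the exact permutation p ran from 0.5 to 1 (two-sided, 0.9 or above after Benjamini-Hochberg adjustment), where 3 libraries against 3 cannot go below 0.1. The share of Scn2a was lower with Chrdl1 in all 3 pairs, by 0.221, 1.74 and 2.28 percentage points in A, B and C. That of Scn3a was higher in all 3, by 0.999, 1.09 and 0.438 points. For both, the exact sign-flip p over pairs was 0.25, the smallest that 3 pairs can give.

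**Figure D2:**
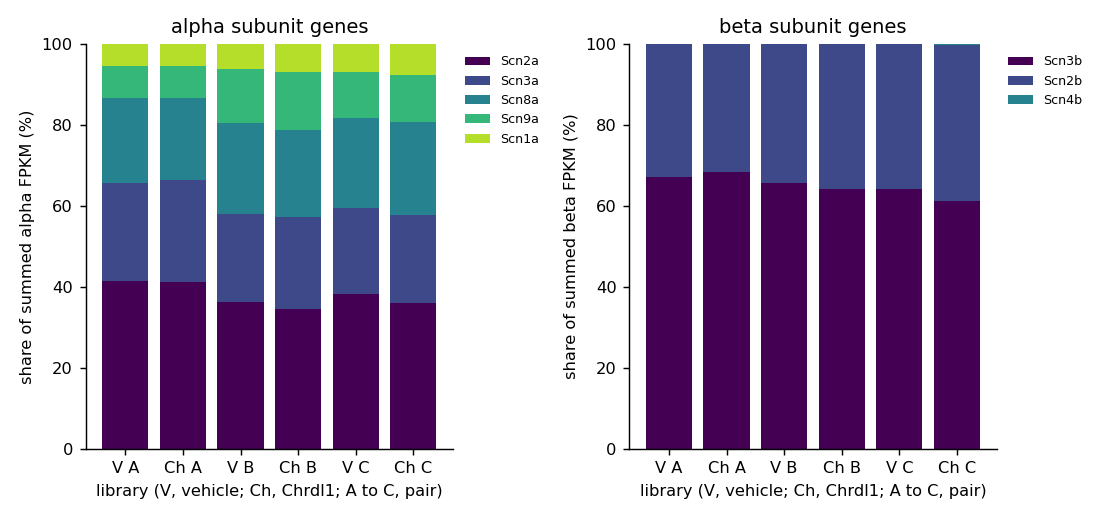
Share of each gene (vertical axis, %) in the summed FPKM of the 5 alpha (left) and 3 beta (right) subunit genes, 1 bar per library, ordered by pair. Scn2a is the largest alpha share in every bar, the Scn9a share is largest in the pair B bars (13.4% and 14.4%), and Scn4b is too small to see.

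Chrdl1 was compared with vehicle to ask whether 12 h of added Chrdl1 alters these transcripts. No member passed the test. The 7 members other than Scn4b, which was under the filter of 1 FPKM in at least 3 libraries, were tested with limma on log2(FPKM + 1) together with the other transcripts, 10390 in all. At an adjusted p under 0.05, 0 of the 7 members and 0.0% of all tested transcripts were called, with or without the title code as a replicate block. At an unadjusted p under 0.05 the plain limma fit held 0.173% of transcripts and no member. With the block it held 5.15% of transcripts, 0.962% being higher with Chrdl1, and 1 member, Scn3a, which was higher. Limma voom on recovered reads called 0 transcripts without the block and 2 with it, Apoe and LOC100911498, which are no sodium channel genes. At an unadjusted p under 0.05, voom with the block held 630 transcripts, 225 of them higher with Chrdl1, and 3 members, Scn3a, Scn1a and Scn9a, all higher, with a limma voom adjusted p of 0.811 for each. The groups overlapped for all 8 members, while 0.577% of transcripts had each Chrdl1 library above each vehicle library and 1.87% had each below.

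Fold changes below are differences of log2(FPKM + 1), Chrdl1 minus vehicle, which understate the change of low genes. Scn1a was at 0.20 ± 0.19 (SE) with a 95% interval from -0.25 to 0.66, and Scn3a at 0.19 ± 0.20 (-0.28 to 0.66). Scn9a was at 0.17 ± 0.32 (-0.58 to 0.91) and Scn8a at 0.13 ± 0.18 (-0.30 to 0.55). Scn2b was at 0.11 ± 0.11 (-0.16 to 0.38), Scn2a at 0.093 ± 0.18 (-0.32 to 0.51) and Scn3b at 0.048 ± 0.19 (-0.40 to 0.49). Their limma adjusted p was 0.9998 for each. Without the block, these SEs include the differences between title codes, given below. The block narrowed the intervals, to 0.010 to 0.38 for Scn3a, -0.037 to 0.44 for Scn1a and -0.043 to 0.38 for Scn9a. For these the limma adjusted p with the block was 0.872 each. The block intervals were -0.082 to 0.33 for Scn8a, -0.079 to 0.27 for Scn2a, -0.044 to 0.26 for Scn2b and -0.083 to 0.18 for Scn3b. There the limma adjusted p was 0.886, 0.886, 0.880 and 0.924. These intervals are for 1 gene at a time. Scn4b, with no call, was at -0.0071.

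All 7 tested members had a positive mean, where 38.4% of tested transcripts had one, and their median was 0.13 against -0.028 over all. Of the 495 tested transcripts of at least 6000 bases, a length that all 5 alpha transcripts reach, 389 had a positive mean. The median of these long transcripts was 0.054, and that of the alpha genes 0.17. In 3 of 3 pairs 4 of the 7 were higher (Scn1a, Scn3a, Scn9a and Scn3b), against 7.55% of transcripts. The values were largest in pair C. There all 7 were positive, as were 39.4% of transcripts, and the members ran from 0.076 (Scn3b) to 0.44 (Scn1a), and each of the 7 was larger than in either other pair. In pair A 6 of 7 were positive (43.8% of transcripts) and they ran from -0.030 (Scn2b) to 0.14 (Scn3a), and in pair B 5 of 7 were positive (43.5%), from -0.093 (Scn2a) to 0.10 (Scn2b), with Scn2a and Scn8a negative. When the pair C vehicle library was left out, the mean turned to -0.093 for Scn2a, -0.015 for Scn3a, -0.040 for Scn8a and -0.098 for Scn3b. Scn3b also turned without the Chrdl1 library of pair A (-0.091), and Scn9a without the Chrdl1 library of pair B (-0.072). With 1 library left out the pairs are unequal between the groups. Without both libraries of pair C, with the block, Scn2a was at -0.0063 and Scn8a at -0.022, while Scn3a, Scn1a and Scn9a were at 0.093, 0.085 and 0.065. Of the 11 tested microglia genes, 8 were lower with Chrdl1 in 3 of 3 pairs, as were 19.5% of all tested transcripts. None of the 11 had a positive mean, against 38.4% of transcripts, and their median was -0.35, with no call. In limma with the block, 8 of the 11 were at an unadjusted p under 0.05, as were 5.15% of transcripts. The part of the microglia genes in the members' values was not tested.

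**Figure D3:**
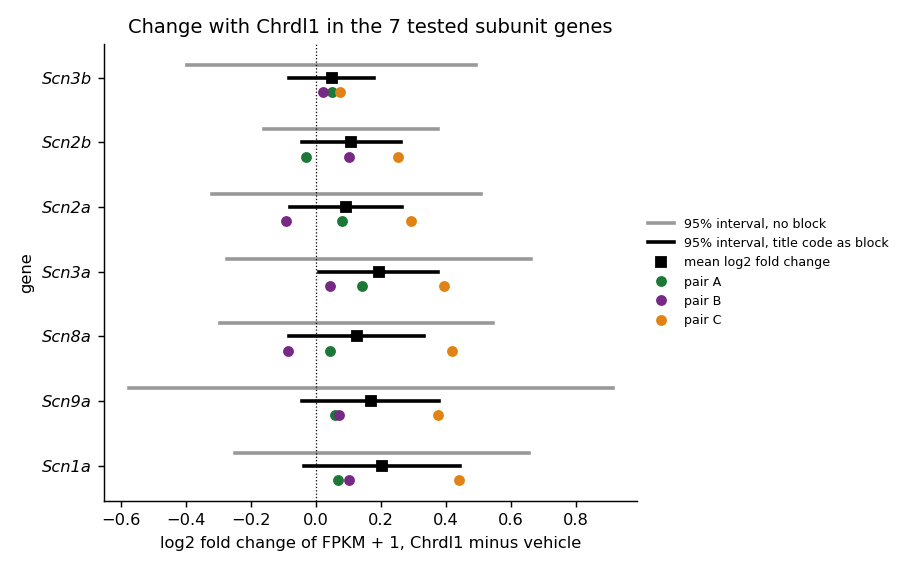
Log2 fold change of FPKM + 1, Chrdl1 minus vehicle (horizontal axis), for the 7 tested members. Squares are means, grey and black bars the 95% intervals without and with the title code as a block, and coloured points the 3 pairs. The pair C point lies farthest right for every gene, from 0.076 to 0.44.

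Alpha subunit transcripts are long, and in pair C fold change went with transcript length. Across the 10390 tested genes, which are not independent replicates, the rank correlation of the 2 was 0.39 in pair C and 0.028 and 0.026 in pairs A and B. The alpha transcripts measure 6411 (Scn8a) to 9272 bases (Scn9a). Of the 495 tested transcripts of at least 6000 bases, 88.7% were positive in pair C, with a median of 0.17, whereas their medians were 0.011 and -0.0099 in pairs A and B. The 5 alpha genes had a median of 0.39 in pair C, with Scn2a lowest at 0.29, Scn9a at 0.37, Scn3a at 0.39, Scn8a at 0.42 and Scn1a at 0.44. Scn2b, at 854 bases, did not follow the trend: it was at 0.25 in pair C, where transcripts under 1000 bases had a median of -0.19 and 22.2% were positive. Scn3b, at 3878 bases, was at 0.076, and transcripts of 3000 to under 5000 bases had a median of 0.014. With the trend removed from each library, the mean was 0.14 for Scn1a, 0.15 for Scn3a, 0.095 for Scn9a, 0.086 for Scn8a, 0.030 for Scn2a, 0.17 for Scn2b and 0.047 for Scn3b, again with no call.

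**Figure D4:**
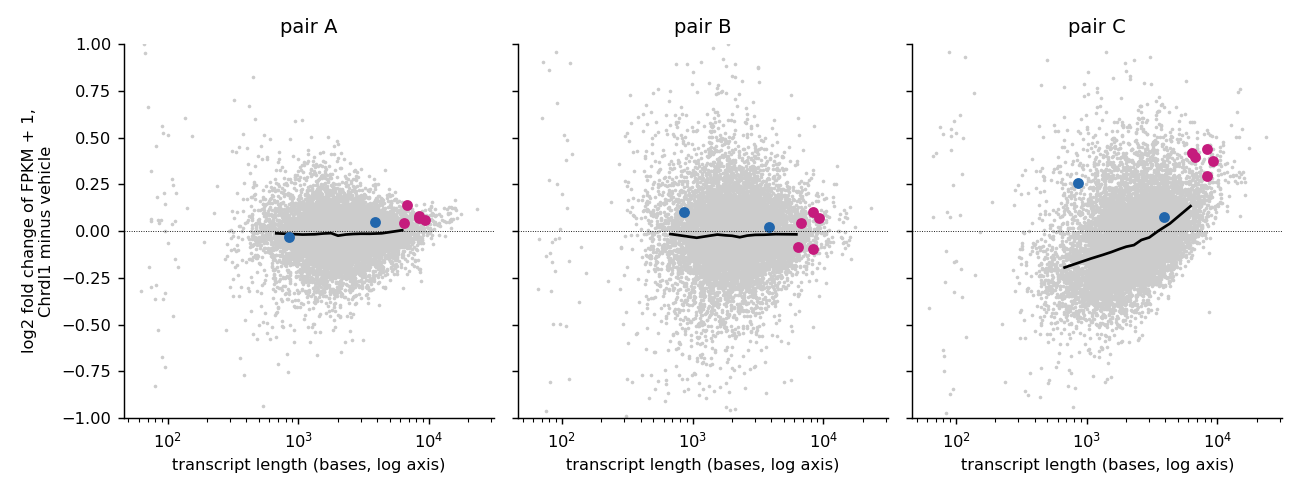
Log2 fold change of FPKM + 1, Chrdl1 minus vehicle (vertical axis, -1 to 1, which leaves out values of 42 genes), against transcript length in bases (log axis), 1 panel per pair. Grey points are all tested transcripts and the line joins medians of 12 length classes of like size. Magenta points are the alpha and blue points the tested beta genes. The line climbs in pair C only, where the alpha points lie between 0.29 and 0.44 and Scn2b, the shortest, at 0.25.

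The title codes were compared in the same way, to show how far the members vary between pairs. With limma's F test of the code, treatment as a covariate, 5 of the 7 tested members (71.4%) passed an adjusted p under 0.05, as did 47.4% of all tested transcripts. Scn9a had a limma adjusted p of 0.000171. It was 0.90 ± 0.12 (SE) higher on the log2 scale in pair B than in pair A, and pair C lay 0.69 below pair B. Scn3b (limma adjusted p = 0.000245) went the other way, with pair B at -0.28 ± 0.074 and pair C at -0.56 ± 0.074 relative to pair A. Scn3a (0.00304) and Scn2a (0.00559) were lower in pair C than in pair A, at -0.44 ± 0.10 and -0.41 ± 0.097, with pair B at 0.066 and -0.00035 relative to pair A. Scn8a (0.0254) was highest in pair B, 0.29 ± 0.12 above pair A, with pair C at -0.13. Scn1a and Scn2b did not pass, at a limma adjusted p of 0.0530 and 0.0847. In the limma F test 6 of 7 passed with quantile normalization, which added Scn1a, or with the length trend removed, which added Scn2b. Of all 10390 transcripts, 4648 passed with quantile normalization and 5697 with the length trend removed. The fits given next left out 1 library, so 1 title code kept 1 library, and their range over all transcripts is given further below. On leaving out 1 library 4 to 7 passed. The 4 were Scn2a, Scn3a, Scn3b and Scn9a, without the vehicle library of pair B. All 7 passed without the Chrdl1 library of pair C. Without the vehicle library of pair C, Scn2a did not pass and Scn1a did.

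The codes also differed in the make-up of the alpha pool. Scn9a gave 8.03%, 13.9% and 11.5% of alpha FPKM in pairs A, B and C, averaged over the 2 libraries of a pair, and Scn1a gave 5.37%, 6.56% and 7.30%. Scn2a gave 41.3%, 35.4% and 37.1%. Summed beta over summed alpha was 1.89, 1.39 and 1.67. Pair B, with the highest Scn9a, had the fewest microglial transcripts (17.4 and 31.9 FPKM summed). Pair C, with the lowest Scn2a, Scn3a and Scn3b, had the most photoreceptor and bipolar transcripts, at the values given above. RGC marker genes, 13 of 14 in the table, summed to 4061 FPKM (vehicle) and 4078 FPKM (Chrdl1) for pair A, to 3227 and 3219 for pair B, and to 3455 and 3045 for pair C. Not every listed gene followed this sum. With vehicle, pairs A and B were at 1095 and 819 FPKM for Sncg, 820 and 579 for Gap43, and 606 and 307 for Tubb3. The order was the other way for Rbpms (86.9 and 98.1), Pou4f2 (28.6 and 38.0), Isl1 (42.8 and 48.3) and Slc17a6 (241 and 289). Apart from Rbpms and Pou4f2, these genes were chosen after their values were seen. The part of cells other than RGCs in the differences between codes was not tested.

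**Figure D5:**
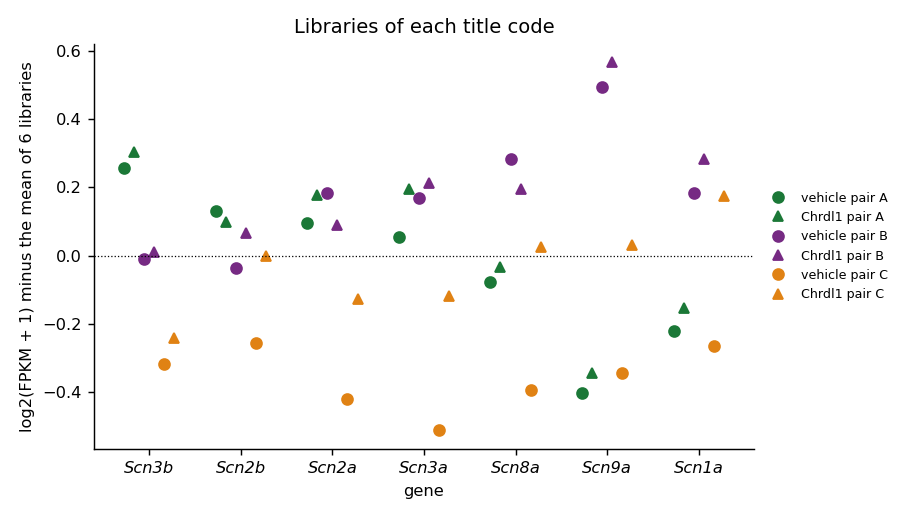
Level of each tested member in each library, as log2(FPKM + 1) minus its mean over the 6 libraries (vertical axis), coloured by pair, with circles for vehicle and triangles for Chrdl1. Pair B stands highest for Scn9a and pair A for Scn3b, and the vehicle library of pair C is the lowest point for Scn2a, Scn3a and Scn8a.

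Some members followed each other across the 6 libraries. As a description over 6 libraries that share 3 codes, Pearson's r of log2(FPKM + 1) was largest for the head-to-head neighbours Scn2a and Scn3a, at 0.98. It was next largest for the neighbours Scn1a and Scn9a, at 0.93. Across these neighbour pairs it was lower, from 0.35 (Scn2a with Scn1a or Scn9a) to 0.49 (Scn3a with Scn1a). Scn8a, alone on its chromosome, had r of 0.79 to 0.84 with each of the other 4 alpha genes. Scn2b and Scn3b were at 0.83 with each other. With Scn2a and Scn3a, which lie on another chromosome, Scn2b was at 0.83 and 0.84, and Scn3b at 0.82 and 0.75. With Scn1a and Scn9a, Scn2b was at 0.21 and 0.063, and Scn3b at -0.20 and -0.19. Of all tested genes, those most like Scn2a were Prkab2 (r = 0.997), encoding a subunit of AMP-activated kinase, Adcy1 (0.997), an adenylyl cyclase, and Chrnb3 (0.994), a nicotinic receptor subunit. Those most like Scn3b were Gnai1 (0.999), an inhibitory G protein subunit, Slit1 (0.996), a guidance cue, and Gadd45a (0.996), a stress-response gene. So high an r is common over 6 points: 171 tested genes exceeded 0.95 with Scn2a and 139 with Scn3b.

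Among other Scn genes of the table, Scn7a, an atypical sodium channel gene linked to sodium sensing, was at 1.86, 3.32 and 2.51 FPKM with vehicle and at 1.79, 3.23 and 2.97 FPKM with Chrdl1. The groups overlapped, and pair A was the lowest in both. The skeletal muscle channel gene Scn4a and the sensory neuron channel genes Scn10a and Scn11a were each below 0.1 FPKM in all 6 libraries, from at most 18 reads.

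Genes whose products hold or tune the channels were abundant, and none of them passed the test. At the axon initial segment and node, 0 of 11 tested genes were called in either direction, 7 had a positive mean, and the median log2 fold change was 0.065 (0.17 in pair C). Sptan1, the alpha spectrin, measured 174 ± 17.5 FPKM with vehicle and 173 ± 18.7 FPKM with Chrdl1 (SD, n = 3), and Cntn1, encoding contactin, at 115 ± 14.8 and 120.1 ± 15.3. Cntnap1, encoding the paranodal protein Caspr, was negative in 3 of 3 pairs, as were 19.5% of tested transcripts, at -0.063 ± 0.11 (SE). Among 14 channel-binding and trafficking genes 0 were called in either direction, and 4 had a positive mean (median -0.071). Calm3, encoding calmodulin, was at 617 ± 110 FPKM with vehicle and 582 ± 125 FPKM with Chrdl1. Csnk2b, a casein kinase subunit gene, was at -0.087 ± 0.11 and Fgf12, an intracellular fibroblast growth factor homolog that binds the channel tail, at -0.073 ± 0.10.

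Of the 10 tested sodium leak channel and pump genes 0 were called in either direction, and 4 had a positive mean (median -0.046). Atp1b1, a pump beta subunit, was at 330.4 ± 6.49 FPKM with vehicle and 321 ± 20.8 FPKM with Chrdl1. Of the 10 tested regulators of sodium channel transcripts 0 were called in either direction, and 7 had a positive mean (median 0.0024). The splicing factor genes Rbfox1 and Ptbp2 were at 42.9 ± 6.69 and 40.1 ± 0.916 FPKM in vehicle and 43.1 ± 7.90 and 39.7 ± 4.07 in Chrdl1 libraries. Rcor1, a corepressor that works with the repressor Rest, was at -0.089 ± 0.15, negative in all 3 pairs.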

How the data were processed

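RNA was measured in 6 libraries, 3 per group. Per the labels' protocols, total RNA was made into libraries with a stranded mRNA kit. STAR 2.4.0k, HOMER 4.8.3 and FastQC are listed for build rn6, per the submitters' processing notes. The authors deposited FPKM values per transcript, with each transcript's length as other information. No source used here gives the annotation release, strand setting or filters. Members of multigene families share stretches of sequence, and how such reads were counted is not given either.

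Reads were recovered as FPKM × length × total: at least 99.99% of values above 0 that could be tested came out whole, allowing 0.0005 FPKM for rounding (3.70% to 6.39% by chance). limma 3.58.1 (R 4.3.3, mean-variance trend, two-sided) was fitted on log2(FPKM + 1) of 10390 transcripts at 1 FPKM or more in at least 3 libraries, with treatment as the only term and Benjamini-Hochberg adjustment over all. Title codes pair the libraries: deviations from the group means correlated at 0.82, 0.86 and 0.84 within codes A, B and C. Shares were compared with exact permutation tests in Python 3.11.15. Fits were checked on simulated data.

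The members and gene lists were chosen with earlier results of these data known. Genes named are all members, the other Scn genes, and from each partner list the 2 most abundant and the 2 with the smallest p and 1 direction in all pairs, plus fixed markers. Some genes that this rule names are not reported here. Unc80, Nova2, Pou4f1 and Emx1 were not analysed here.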

Additional observations from a re-analysis of the deposited data

How the results depend on the processing

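No tested member passed an adjusted p of 0.05 under any of 21 alternatives, the smallest limma adjusted p being 0.503 (Scn3a, replicate block, without pair B). Over all transcripts, limma called 0 except for 2 with voom and the replicate block, 25 with the block without pair A and 34 with the block without pair B. At an unadjusted p under 0.05, limma voom held 5 without the block and 630 with it. The members among the latter were Scn3a, Scn1a and Scn9a, at 0.00578, 0.00734 and 0.0159 in limma voom before adjustment. In other limma fits with the block, Scn3a (0.0104) and Scn8a (0.0287) were under 0.05 without pair B. That fit rested on 2 pairs only, and 686 of the 10390 transcripts were under 0.05 in it. In limma with the block and the length trend removed, Scn2b (0.0366), but not Scn3a (0.0619), was under 0.05, as were 443 transcripts in all. Scn1a and Scn2b kept a positive sign under all 21. Array weights turned Scn3b to -0.040, and leaving out pair C, with the replicate block, turned Scn2a to -0.0063 and Scn8a to -0.022. Leaving out 1 library gave -0.093 to 0.21 for Scn2a, -0.015 to 0.33 for Scn3a, -0.040 to 0.30 for Scn8a, -0.072 to 0.46 for Scn9a, 0.11 to 0.35 for Scn1a, 0.0086 to 0.20 for Scn2b and -0.098 to 0.19 for Scn3b. The cause of the turns was not tested.

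For shares, Chrdl1 minus vehicle in percentage points, leaving out 1 library gave -0.058 to 1.09 for Scn1a, -3.39 to -0.034 for Scn2a, -0.137 to 1.75 for Scn3a, -0.979 to 0.379 for Scn8a, -1.14 to 2.05 for Scn9a, -0.643 to 2.87 for Scn2b, -2.89 to 0.682 for Scn3b and -0.0392 to 0.0202 for Scn4b. The ratio of beta to alpha moved from -0.274 to 0.0168. With recovered reads the Scn4b share turned from -0.0011 to 0.0023 points. The paired comparison (replicate block) of the shares gives the same mean differences by construction, -1.41 points for Scn2a and 0.843 for Scn3a. Neither the exact sign-flip test over 3 pairs, with a smallest p of 0.25, nor the exact permutation test, with 0.1, could make a call. The code test called 4930 transcripts, and 3148 (without the Chrdl1 library of pair A) to 5581 on leaving out 1 library, a check added after seeing the data. Scn4b had too few reads, 5 to 19, for any comparison.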

Other observations

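The following genes were chosen after their values were seen. Atp1b2, encoding a pump beta subunit that also serves as a glial adhesion molecule, was at 31.8, 23.5 and 87.4 FPKM with vehicle (A, B, C) and at 33.7, 23.0 and 86.7 FPKM with Chrdl1. Pair C was thus far above the others in both groups, and limma's F test of the title code gave an adjusted p of 4.14e-09. Fxyd7, a small brain regulator of the pump, was at 15.5, 6.43 and 10.1 FPKM with vehicle and at 12.4, 6.32 and 7.43 FPKM with Chrdl1. Its log2 fold change was -0.24 ± 0.34 (SE) with a limma adjusted p of 0.9998, and 0.872 with the replicate block. It rested on 66 to 268 reads per library.

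Apoe, the apolipoprotein E gene, and LOC100911498 were the 2 transcripts that voom called with the block, at -0.36 (adjusted p = 0.00442) and 0.38 (adjusted p = 0.0356). Apoe had 31082, 1696 and 44343 reads with vehicle and 23770, 1509 and 34520 with Chrdl1. These reads are not scaled to the read totals, which in pair B were 14546600 with vehicle and 22870500 with Chrdl1. The limma fit with the block on log2(FPKM + 1) called neither Apoe nor LOC100911498.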
